A study of Homo sapiens with 19 samples.

Results

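Among 33382 genes measured in a time course of EED loss in H1 human embryonic stem cells (hESCs), 53 genes were high at day 8 only. EED is a core subunit of the polycomb repressive complex 2 (PRC2), and H1 is an established line. The genes were chosen from 7 samples of H1-EED-/-/EED-OE cells, 1 sample per condition, which all lack endogenous EED and carry a doxycycline (DOX)-inducible EED transgene. One sample was kept with DOX, and the others were taken 8, 12, 16, 20, 24 and 28 days after DOX withdrawal. The values used were TPM, a share of all transcripts, which adjust for transcript length and sum to about the same value in each sample. With v as TPM + 1, a gene was a member if v at day 8 was at least 3 times v with DOX and at least 2 times v on every later day, and if its day 8 TPM was at least 5. The levels of the members were then described in 12 samples that the choice did not use: 2 samples each of WT H1 and of H1 lines that are EZH1-/-, EZH2-/-, EED-/-, SUZ12-/- or, as a line without either EZH protein, EZH2-/-/EZH1-/-. The last 3 lines are referred to as PRC2-null and the other 3 as retaining, after the study's account of which cells keep H3K27me3. Each knockout was a deletion of a functional domain made with CRISPR, and the cells were grown in the hESC medium mTeSR1. The knockout samples of a line carry different clone or passage tags, whether they came from separate cultures is not stated, and p-values measure only the spread between them. The title of the DOX sample also carries a day 28 tag, so its day of harvest may differ from that of the day 8 sample.

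PRC2 places the repressive mark H3K27me3 on histone H3, and in hESCs many genes of embryonic development carry it while they are silent. Neural induction, by contrast, is the path that hESCs take when signals for other germ layers are low, and its first transcription factors include members of the SOX, LIM-homeodomain and Iroquois families. Metallothioneins, another family met below, are small proteins that bind zinc and copper, and their genes respond to metal through the factor MTF1.

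Of 11426 genes with a day 8 TPM of at least 5, 392 (3.43%) were at least 3-fold higher at day 8 than with DOX, and 53 of them passed the condition on every later day. Since these values chose the members, they are given as a description without a test. The day 8 level ran from a TPM of 5.04 to 417 (median 21.2), against 0 to 131 with DOX (median 2.09), and the median ratio of v at day 8 to v with DOX was 4.16, with a range from 3.04 to 53.2. Day 12 was the next highest sample for 31 members, and DOX for 8. The 8 include TBC1D3C and RP11-923I11.8, for which all time-course samples but day 8 were tied at 0. At day 12, 42 members were still above DOX, 15 of them by at least 2-fold in v. By day 28, 31 members had a TPM below that with DOX, and v had dropped to 50% of the DOX value or less in 17. The same rule with another day as the peak found 8 genes for day 12, 23 for day 16, 188 for day 20, 210 for day 24 and 585 for day 28. Each time point is 1 sample, so a peak at day 8 and a property of that 1 library cannot be told apart. In these bulk samples, a change in the number of cells of a type and a change in RNA per cell cannot be told apart either.

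**Figure D1:**
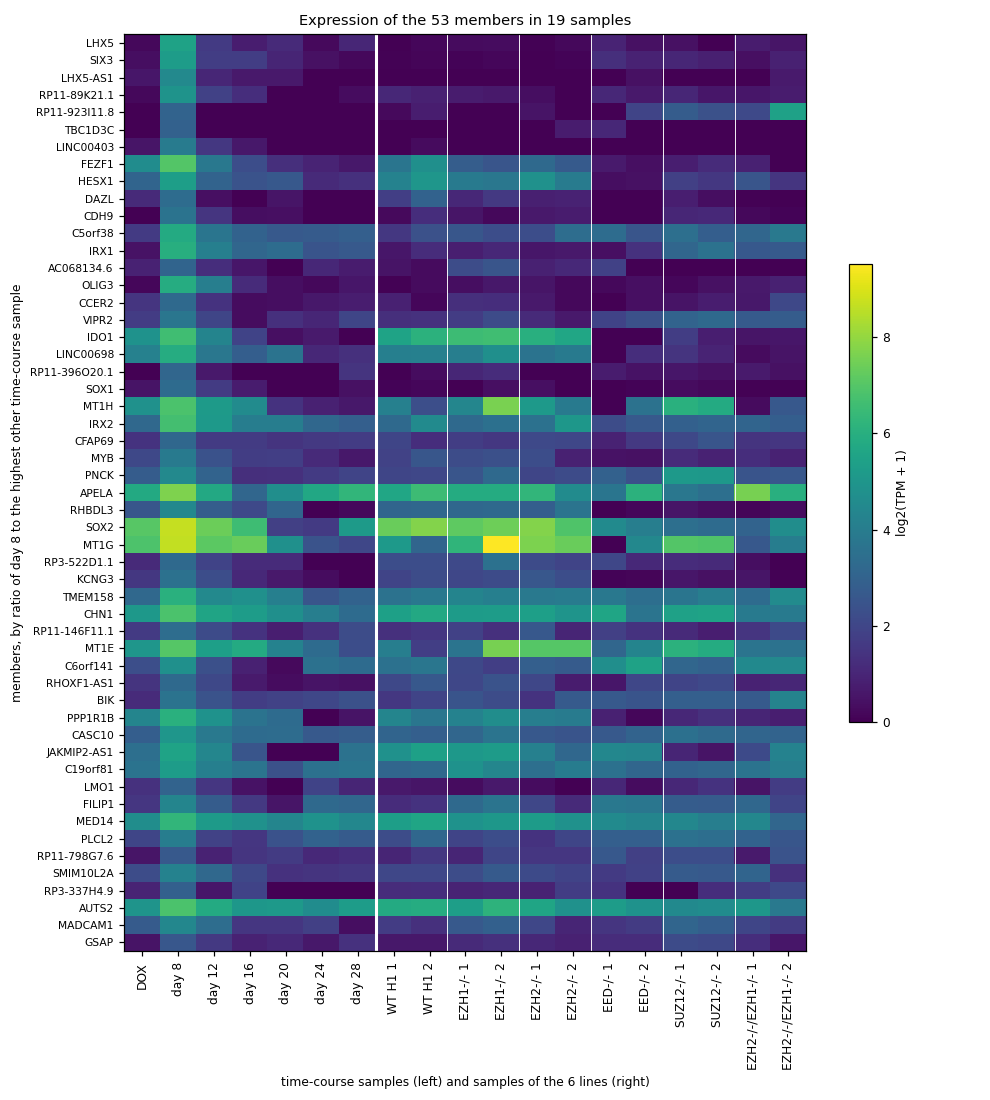
Each row is a member and each column a sample, with the time course on the left of the white line and the 6 lines on the right, and the colour gives log2(TPM + 1). Day 8 was the highest of all 19 samples for 44 of 53 members, and the 9 exceptions included the 3 metallothioneins. The rule had already placed day 8 above the rest of the time course.

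By the ratio of v at day 8 to v in the next highest sample, LHX5 (14.7) and SIX3 (11.7) ranked above the other members. They are described first with 7 other transcription factors of the early nervous system, a group formed after the members were known. It holds members only, and related factors outside it went both ways. SIX6, FEZF2, OLIG2 and RAX had a TPM of 2.59, 0.12, 0.26 and 0.73 with DOX and 1.14, 0.17, 0 and 2.06 at day 8. SIX2, IRX5 and SOX21 rose to 23.35, 13.8 and 32.0 at day 8. SIX2 had 26.2 at day 20, and IRX5 and SOX21 had 17.6 and 22.25 at day 28. LHX5, a LIM-homeodomain factor of the forebrain, had a TPM of 0.15 with DOX, 43.9 at day 8, 2.05 at day 12 and 0.19 to 1.19 from day 16 to day 28. SIX3, a homeodomain factor of the forebrain and eye field, had 0.27 with DOX, 37.6 at day 8, 2.31 at day 12, 2.28 at day 16 and at most 0.97 thereafter. Both were near 0 in every sample but day 8. OLIG3, a basic helix-loop-helix factor of the dorsal neural tube, had 0.11 with DOX, 58.1 at day 8, 15.8 at day 12 and 0.14 to 1.28 later. SOX1, an early marker of the neural plate, had 0.40 with DOX, 9.04 at day 8, 2.13 at day 12 and at most 0.64 later. OLIG3 thus kept a tail at day 12, while the day 12 level of SOX1 lay between those of LHX5 and SIX3.

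The Iroquois genes IRX1 and IRX2, homeodomain factors that pattern the neural plate and other tissues, kept a residual level to the end. IRX1 rose from a TPM of 0.37 with DOX to 62.4 at day 8, then had 16.1 at day 12 and between 4.54 and 9.44 from day 16 to day 28. IRX2 had 8.23 with DOX, 101 at day 8, 34.5 at day 12 and 6.41 to 15.6 later, so that it returned to about its level with DOX while IRX1 stayed above it. FEZF1, a zinc finger factor of the forebrain, and HESX1, a homeobox factor of the anterior neural plate and pituitary, were already present with DOX. FEZF1 had 23.9 with DOX, 126 at day 8, 13.1 at day 12 and 0.52 at day 28. HESX1 had 7.33 with DOX, 40.04 at day 8, 7.28 at day 12 and 1.48 at day 28. SOX2, which is shared by pluripotent cells and neural progenitors, had 131 with DOX, 417 at day 8, 165 at day 12, 94.4 at day 16, 2.48 at day 20, 2.10 at day 24 and 35.9 at day 28. FEZF1, HESX1 and SOX2 were thus higher at day 8 than with DOX and lower than with DOX by day 28.

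**Figure D2:**
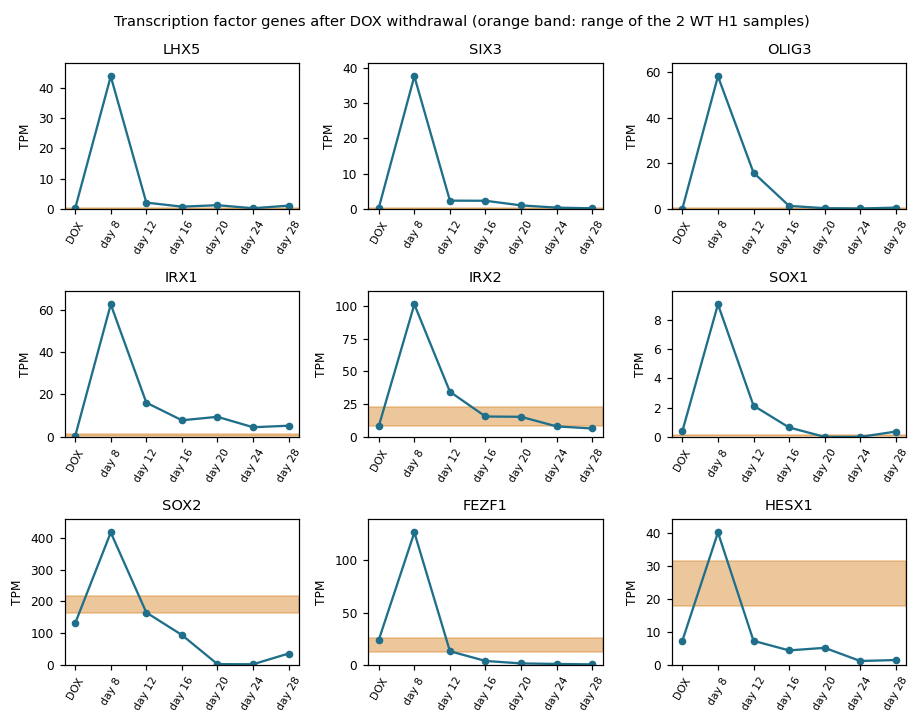
Each panel plots TPM on a linear axis that starts at 0 against the 7 time-course samples for 1 factor, and the orange band spans the 2 WT H1 samples. LHX5, SIX3, OLIG3 and SOX1 had a TPM of at most 2.28 outside days 8 and 12, while SOX2, FEZF1 and HESX1 started within or below the WT H1 band and ended below it.

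Promoter windows for 33 of 53 members were taken from RefSeq (GRCh38.p14), each with 250 bases before the start and 50 after it. The median number of CG pairs per window was 30 in the 33 members, 27 in 9079 genes with a day 8 TPM of at least 5, and 14 in 27305 windows of that length. Among the factors with a window, HESX1 had the most CG pairs, 43, and OLIG3 the fewest, 10, and these windows are shown to give that range. IRX2 is shown because 285 of its 300 bases are shared with the window of C5orf38, a gene on the opposite strand that peaked with it and lies 454 bases away in GENCODE. Capitals mark CG pairs. The windows lie at chr3:57227566-57227865 (HESX1, minus strand), chr6:137494345-137494644 (OLIG3, minus strand) and chr5:2751628-2751927 (IRX2, minus strand).
HESX1: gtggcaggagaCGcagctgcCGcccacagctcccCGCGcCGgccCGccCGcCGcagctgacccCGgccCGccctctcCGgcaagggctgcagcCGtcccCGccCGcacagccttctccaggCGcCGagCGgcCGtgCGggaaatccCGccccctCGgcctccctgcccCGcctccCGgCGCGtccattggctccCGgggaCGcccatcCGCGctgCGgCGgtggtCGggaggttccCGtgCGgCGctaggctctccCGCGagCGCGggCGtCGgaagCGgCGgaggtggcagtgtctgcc
OLIG3: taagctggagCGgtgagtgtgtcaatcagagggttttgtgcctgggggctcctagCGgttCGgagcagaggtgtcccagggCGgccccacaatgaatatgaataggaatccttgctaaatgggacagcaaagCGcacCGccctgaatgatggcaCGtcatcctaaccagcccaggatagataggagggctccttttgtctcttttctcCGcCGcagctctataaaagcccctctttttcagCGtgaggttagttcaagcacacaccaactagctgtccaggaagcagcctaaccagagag
IRX2: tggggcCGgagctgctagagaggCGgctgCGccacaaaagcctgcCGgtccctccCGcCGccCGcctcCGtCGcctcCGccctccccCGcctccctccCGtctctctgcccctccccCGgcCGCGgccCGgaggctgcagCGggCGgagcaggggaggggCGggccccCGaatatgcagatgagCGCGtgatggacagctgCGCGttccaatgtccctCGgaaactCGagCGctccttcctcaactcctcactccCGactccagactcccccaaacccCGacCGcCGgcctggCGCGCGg

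Among the members were 4 non-coding genes that lie beside these factors. LHX5-AS1, whose exons overlap LHX5 on the other strand, had a TPM of 0.50 with DOX, 21.7 at day 8 and 1.02 at day 12. RP11-89K21.1 (LINC01833 in GENCODE), whose nearest end is 2503 bases from SIX3, had 0.16 with DOX, 28.7 at day 8 and 2.59 at day 12. LINC00403 (SOX1-OT in GENCODE), which spans SOX1, had 0.47 with DOX, 14.6 at day 8 and 1.94 at day 12. C5orf38 (IRX2-DT in GENCODE) had 2.09 with DOX, 55.1 at day 8, 11.9 at day 12 and 5.37 to 6.89 later. Each of the 4 had day 12 as its next highest sample. C5orf38 stayed above its level with DOX to day 28, while IRX2 did not. Other non-coding genes that overlap these factors were not members. FEZF1-AS1 had 23.03 with DOX and 51.5 at day 8, and SIX3-AS1 was listed at 0 with DOX and had 3.23 at day 8. The library kit does not mark strand, so reads of LHX5 and LHX5-AS1 cannot be told apart where they overlap.

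By GENCODE annotation, 14 of 52 annotated members (26.9%) were lncRNAs, against 5.06% of 11365 annotated genes with a day 8 TPM of at least 5. The other 38 were protein coding. The members' median exon length was 2931 bases, against 5200 in those genes. Within 200 kb of another member lay 13 members, in the pairs and clusters named here and in that of DAZL and PLCL2. Exons of 22 members overlapped those of another gene, so their levels carry that uncertainty.

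Metallothioneins formed a cluster of 3 members on chromosome 16. MT1G had a TPM of 116 with DOX, 408 at day 8, 138 at day 12, 162 at day 16, 26.5 at day 20 and 3.07 at day 28. MT1H had 26.9 with DOX, 112 at day 8, 35.1 at day 12, 23.5 at day 16 and 0.54 at day 28. MT1E had 31.2 with DOX, 128 at day 8, 40.2 at day 12, 55.2 at day 16 and 3.74 at day 28. Among 9 metallothionein genes that reached a TPM of 1 in the time course, 6 were at least 3-fold higher at day 8 than with DOX at a day 8 TPM of at least 5. The share over all genes that reached a TPM of 1 was 2.06%. The rule had already placed the 3 members above this limit, and the family was looked up after them. The count is thus a description without a test. At day 28, 8 of the 9 were below DOX, and no share of all genes is given for that count. MT1F, MT1M and MT2A shared the rise without being members. MT1X, the most abundant of them at day 8, had 198 with DOX, 441 at day 8 and 449 at day 12. These genes are nearly identical in sequence, so reads may be split unevenly among them.

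The MT1H window is shown for its 8 matches to the core of the metal response element, the short motif that MTF1 binds. The letters searched were TGCACNC and TGCGCNC on both strands, which differ in 1 base, so that no position on a strand matches both. At least 1 match was found in 29.4% of the 27305 windows and 8 or more in 6 windows. Capitals mark the matches at chr16:56669564-56669863 (plus strand).
MT1H: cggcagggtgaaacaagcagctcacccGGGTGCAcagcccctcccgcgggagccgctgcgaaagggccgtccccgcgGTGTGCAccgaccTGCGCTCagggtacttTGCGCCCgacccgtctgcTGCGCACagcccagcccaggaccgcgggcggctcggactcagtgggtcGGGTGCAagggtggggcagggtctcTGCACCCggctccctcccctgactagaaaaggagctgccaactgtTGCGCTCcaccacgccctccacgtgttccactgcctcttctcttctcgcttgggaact

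Several members act in signalling or in other tissues. APELA, a secreted peptide ligand of the apelin receptor that hESCs express, had a TPM of 53.8 with DOX, 204 at day 8, 52.4 at day 12, 7.92 at day 16 and 75.5 at day 28. IDO1, an enzyme that breaks down tryptophan, had 27.8 with DOX, 96.3 at day 8, 18.6 at day 12, 2.79 at day 16 and at most 0.62 later. VIPR2, a receptor for vasoactive intestinal peptide, had 2.24 with DOX, 12.5 at day 8 and 2.97 at day 12. CDH9, a cadherin, was listed at 0 with DOX and had 11.4 at day 8 and 1.79 at day 12. PNCK, a calmodulin-dependent kinase, had 5.80 with DOX and 21.2 at day 8. MYB, a transcription factor of blood progenitors, had 3.20 with DOX, 13.9 at day 8 and 4.27 at day 12. DAZL, an RNA-binding protein of germ cells, had 1.2 with DOX, 9.28 at day 8 and 0.30 at day 12. DAZL came without the rest of its list, since 1 of the 6 germline genes that reached a TPM of 1 in the time course was 3-fold higher at day 8 and 10 of 19 were listed at 0 there.

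Of the remaining members, the lncRNA LINC00698 had a TPM of 17.2 with DOX, 59.2 at day 8 and 1.49 at day 28. RHBDL3, a rhomboid-like membrane protein, had 4.87 with DOX, 20.8 at day 8 and 0.15 at day 28. CFAP69, a protein of cilia and flagella, had 1.66 with DOX, 8.12 at day 8 and 1.68 to 2.2 afterwards. AC068134.6, CCER2 and RP11-396O20.1 reached 7.47, 8.55 and 7.90 at day 8. TBC1D3C and RP11-923I11.8 were listed at 0 in the other 6 time-course samples and had 6.79 and 7.24 at day 8. Other members were present with DOX and rose from there. TMEM158, a membrane protein, had 8.35 with DOX, 66.0 at day 8 and 21.2 at day 12. CHN1, a GTPase-activating protein for Rac, had 32.6 with DOX, 113 at day 8 and 46.7 at day 12. AUTS2, a nuclear protein linked to brain development, had 29.2 with DOX, 113 at day 8 and 55.5 at day 12. MED14 had 24.6 with DOX and 76.8 at day 8, and PPP1R1B had 19.1 and 64.7. BIK, a BH3-only protein of cell death, had 1.25 with DOX and 11.3 at day 8. TBC1D3C belongs to a family of near-identical copies, so the assignment of its reads is uncertain.

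Other gene groups moved in the day 8 library too. Of 16 neural ectoderm genes, 8 were at least 3-fold higher at day 8 than with DOX, against 392 (2.06%) of 19011 genes that reached a TPM of 1 in any time-course sample. The list was drawn up with earlier results of these data known. The rule had already placed the members in it above this limit, so the count is a description without a test. HESX1, SIX3 and SOX1 were members, while genes such as OTX2, ZIC1, PAX6 and MAP2 were not, since on a later day they were above the limit that the rule sets. PAX6, for instance, had 5.23 at day 8 and 32.8 at day 28. ZIC1 had 1.32 with DOX, 74.1 at day 8 and 50.1 at day 12. The summed TPM of the list was 403 with DOX, 995 at day 8, 366 to 866 on later days and 448 to 746 in the retaining lines. None of its genes was listed at 0 at day 8. Of 18 pluripotency genes, only SOX2 was 3-fold higher at day 8, and NODAL, LEFTY1 and LEFTY2 were 3-fold lower. POU5F1 (OCT4) had 2916 with DOX and 2422 at day 8.

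The endoderm list summed to 28.8 with DOX and 34.8 at day 8, and HNF4A and TTR were listed at 0 at day 8. The mesoderm and endothelium list summed to 413 with DOX and 234 at day 8, while its median log2 ratio of day 8 to DOX was 0.31. Its most abundant gene, TAGLN, had 320 with DOX and 114 at day 8. CXCR4 alone of 14 endoderm genes and MSX2 alone of 19 mesoderm and endothelium genes were 3-fold higher at day 8. LHX1 was 3-fold higher among 13 primitive streak genes, with 0.51 with DOX and 25.6 at day 8. Of 16 trophoblast and amnion genes, IGFBP3, KRT7 and TFAP2C were higher, and IGFBP3 had 4.53 with DOX and 51.4 at day 8. Of 27 BMP and TGF-beta signalling genes, FST, ID2, BMP7 and ID4 were higher, and ID2 had 44.4 with DOX and 356 at day 8. Of 27 WNT signalling genes, LEF1, FZD5 and AXIN2 were higher. The day 8 library thus held higher levels of single genes from several lists beside the neural one. Genes of culture state differed as well. Of 26 hypoxia response genes, 7 were 3-fold higher at day 8. Of 35 amino-acid and unfolded-protein response genes, 8 were 3-fold lower, against 0.373% of all genes, and their list of 36 summed to 5328 with DOX and 2472 at day 8. Of 40 immediate-early response genes, DUSP6, ETV4, SPRY4 and ARC were 3-fold lower and EGR1 was 3-fold higher. DUSP6 had 186 with DOX and 26.3 at day 8, and EGR1 had 30.5 and 118. The part of these genes in the members' peak was not tested.

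The last members inside the threshold were GSAP, MADCAM1, AUTS2, RP3-337H4.9 and SMIM10L2A, and the first genes outside were TTYH1, MAP2, MT2A, RP11-758H9.2 and COX6B2. GSAP had a TPM of 5.04 at day 8 and 2.02 at day 12, where v was at exactly the factor asked. MT2A had 141 at day 8 and 71.6 at day 16, just under it. When the 7 samples were rescaled by the median ratio over genes, with factors from 0.857 for DOX to 1.18 for day 28, 46 genes met the rule and 43 were shared. SOX2, IDO1, LINC00698, PPP1R1B, PNCK, CHN1, MED14, LMO1, MADCAM1 and C19orf81 were the members lost.

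The members were then compared in the 6 lines, to describe where genes with a day 8 peak stood in cells that had lacked PRC2 for long and in cells that kept it. Differences were tested with limma on log2(TPM + 1) over 19100 genes, and a call needed a p of 0.01 or less after Benjamini-Hochberg adjustment and a fold change of 3 or more. Of the 53 members, 47 passed the filter on low values (TPM of 1 or more in 2 or more samples). LHX5, LHX5-AS1, OLIG3, SOX1, LINC00403 and TBC1D3C did not, and their highest TPM in any of the 12 samples was 0.94, 0.62, 0.82, 0.32, 0.22 and 1.09. These samples did not choose the members, but the rule had already asked for lower levels on the later days without EED.

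Both WT H1 samples were below day 8 for all 53 members. A line sample exceeded day 8 for 9 members, namely MT1E, MT1G, MT1H, IDO1, PNCK, RP11-923I11.8, RP3-522D1.1, C6orf141 and BIK. The rule chose genes with a high day 8 value, at least 3 times that with DOX, which favours both counts. They are a description without a test, and no share of all genes is given for them.

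In EED-/- H1 cells, 10 members were called lower than in WT H1, beside 6.09% of all genes tested, and FILIP1 was called higher, beside 16.2%. In SUZ12-/- H1 cells, 9 were lower (all genes 5.21%) and 3 higher (all genes 14.5%). In EZH2-/-/EZH1-/- H1 cells, 11 were lower (all genes 5.66%) and 1 higher (all genes 11.6%). These 3 comparisons share the WT H1 samples. Between the 3 PRC2-null and the 3 retaining lines, 9 were lower (all genes 5.09%) and 1 higher (all genes 13.5%). The median log2 fold change of the 47 was -0.32, -0.09, 0.07 and -0.20 in these comparisons, against 0.36, 0.22, 0.19 and 0.29 over all genes. Median-ratio scaling of the 12 samples moved the median of all genes by -0.31, -0.15, -0.13 and -0.23, and left 10, 10, 12 and 10 members lower. With that scaling the shares of all genes called lower rose to 8.83%, 6.79%, 7.11% and 6.66%. The scaling took the share of higher genes among all called genes in EED-/- H1 from 72.7% to 58.0%. With the set chosen after rescaling the time course, 6, 5, 6 and 6 of 40 members tested were lower, and SOX2, IDO1, LINC00698 and PPP1R1B were among the genes no longer in the set.

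**Figure D3:**
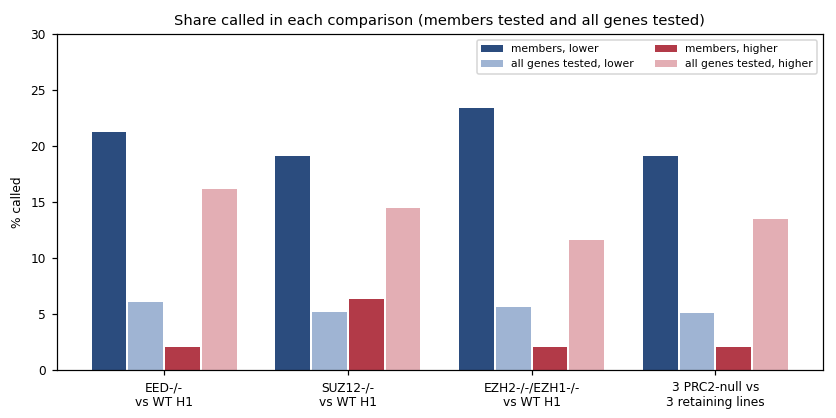
Bars give the percentage called lower (blue) or higher (red) among the 47 members tested (dark) and all 19100 genes tested (light) in 4 comparisons. In EED-/- H1 cells, 10 members were lower and 1 higher, and the dark blue bar stands above the light blue one in each comparison.

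SOX2, HESX1 and FEZF1 were called lower than in WT H1 in each PRC2-null line, while IRX2, with a TPM of 8.61 and 22.7 in WT H1, was called in none of them. SOX2 had a TPM of 165 and 219 in WT H1, 141 and 173 in EZH1-/- H1, 216 and 120 in EZH2-/- H1, 22.6 and 16.1 in EED-/- H1, 10.3 and 9.17 in SUZ12-/- H1, and 7.09 and 24.5 in EZH2-/-/EZH1-/- H1. Every PRC2-null sample was below every retaining one. The log2 fold change was -3.25 ± 0.46 (SE, limma adjusted p = 0.000177) for EED-/-, -4.15 ± 0.46 (adjusted p = 3.58e-05) for SUZ12-/- and -3.73 ± 0.46 (adjusted p = 9.24e-05) for EZH2-/-/EZH1-/- cells. In the same 3 comparisons, 13, 12 and 13 of 18 pluripotency genes were lower, SOX2 among them, and 2, 0 and 0 were higher. The 2 were LEFTY2 and NODAL. Of 15 neural ectoderm genes tested, 4, 3 and 3 were higher and 3, 4 and 3 lower. ZIC1 and PAX6 were higher in each comparison, and HESX1 was lower in each. HESX1 had 17.9 and 31.3 in WT H1, 14.4 and 12.8 in EZH1-/- H1, 27.1 and 14.8 in EZH2-/- H1, 0.29 and 0.34 in EED-/- H1, 2.46 and 1.94 in SUZ12-/- H1, and 4.72 and 1.80 in EZH2-/-/EZH1-/- H1. FEZF1 had 12.2 and 26.0 in WT H1, 6.01 and 4.65 in EZH1-/- H1, 8.64 and 5.51 in EZH2-/- H1, and at most 1.27 in a PRC2-null sample. The reads of its overlapping antisense gene FEZF1-AS1, at 12.3 and 16.6 in WT H1 and at most 1.31 in a PRC2-null sample, cannot be told apart from it.

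Members other than these transcription factors were lower in PRC2-null lines too. IDO1 had the lowest log2 fold change of the members, with a TPM of 45.3 and 68.4 in WT H1, 90.6 and 96.9 in EZH1-/- H1, 63.8 and 48.8 in EZH2-/- H1, 0 and 0 in EED-/- H1, 2.28 and 0.76 in SUZ12-/- H1, and 0.47 and 0.49 in EZH2-/-/EZH1-/- H1. Its log2 fold change was -5.46 ± 0.19 (SE, limma adjusted p = 3.68e-09) between the PRC2-null and retaining lines, with all 6 null samples below all 6 others. LINC00698 had 11.5 to 25.6 in retaining samples and 0 to 1.73 in PRC2-null samples. PPP1R1B, an inhibitor of protein phosphatase 1, had 12.5 to 24.3 and 0.13 to 1.5. RHBDL3 had 6.22 to 11.6 and 0 to 0.47. KCNG3, a potassium channel subunit, had 2.86 to 4.94 and 0.04 to 0.48, and its log2 fold change in SUZ12-/- H1, -1.58, was just under the 3-fold limit. DAZL had 0.80 to 6.93 in retaining samples and 0 to 0.72 in PRC2-null samples, with its highest values, 2.40 and 6.93, in WT H1. In SUZ12-/- H1 its adjusted p rose from 0.00217 to 0.0206 without WT H1 replicate 2 and to 0.0265 without SUZ12-/- H1 replicate 2.

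In all, 11 members had every PRC2-null sample below every retaining one (all genes 13.3%), and SIX3 alone had every one above (all genes 24.2%). SIX3 stayed low there, with a TPM between 0.32 and 1.42 in PRC2-null samples and between 0 and 0.11 in retaining samples, against 37.6 at day 8. It passed the filter on low values only through PRC2-null samples, so the filter favoured this direction.

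**Figure D4:**
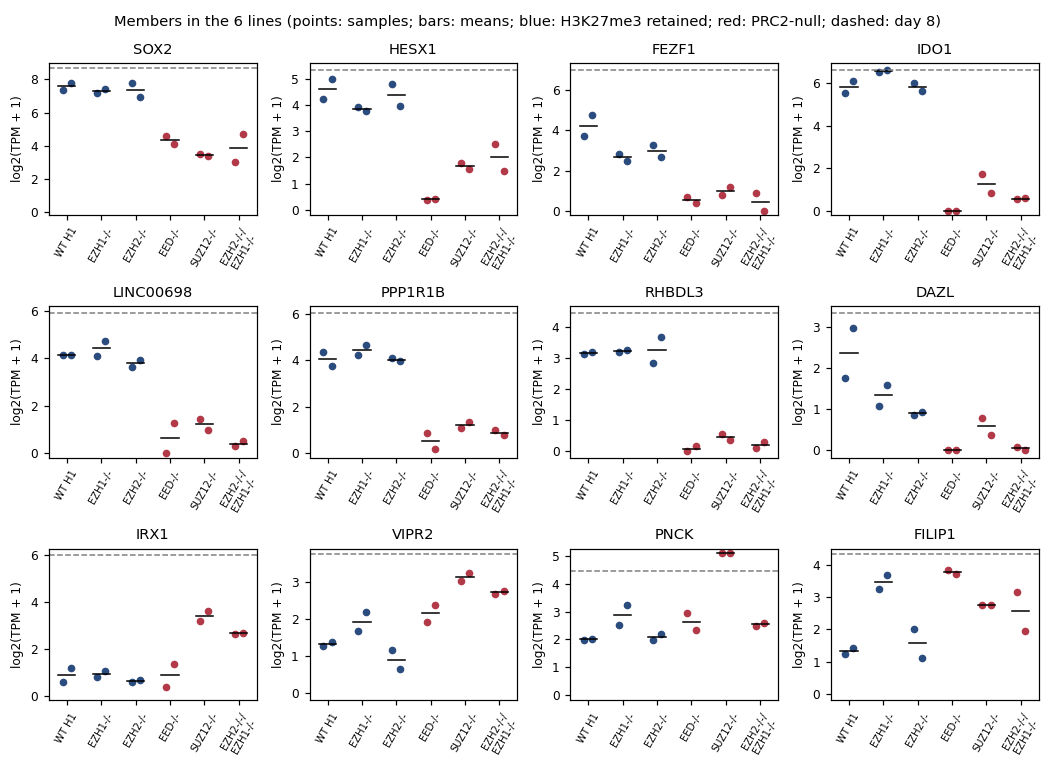
Each panel plots log2(TPM + 1) of the 2 samples (points) and their mean (bar) in 6 lines for 1 member, with the retaining lines in blue, the PRC2-null lines in red and day 8 dashed. SOX2, HESX1, FEZF1, IDO1, LINC00698, PPP1R1B, RHBDL3 and DAZL were lower in the PRC2-null lines, while IRX1, VIPR2 and PNCK were highest in SUZ12-/- H1.

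Some calls rested on single libraries. MYB was lower in EED-/- H1 (log2 fold change -1.77, limma adjusted p = 0.00433), and its adjusted p was 0.0470 without WT H1 replicate 2, 0.0247 without EED-/- H1 replicate 1 and 0.0245 without EED-/- H1 replicate 2. RP3-522D1.1 and MED14, a Mediator subunit, were called lower in EZH2-/-/EZH1-/- H1, and neither passed the direct test of that line against EED-/- H1 or SUZ12-/- H1. RP3-522D1.1 (log2 fold change -2.07, adjusted p = 0.00364) lost its call without WT H1 replicate 1 (adjusted p = 0.0257), WT H1 replicate 2 (0.0248) or EZH2-/-/EZH1-/- H1 replicate 2 (0.0195). MED14 (-1.71, adjusted p = 0.00300) lost it without WT H1 replicate 1 (adjusted p = 0.0162), without WT H1 replicate 2 (0.0297), and without EZH2-/-/EZH1-/- H1 replicate 2, where the log2 fold change was -1.07. KCNG3 in this line had -1.79 with it and -1.56 without EZH2-/-/EZH1-/- H1 replicate 2.

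RP11-923I11.8 was the member called higher between the PRC2-null and retaining lines (log2 fold change 2.2 ± 0.51, limma adjusted p = 0.00280). Its TPM was 43.2 and 3.31 in EZH2-/-/EZH1-/- H1, 5.89 and 4.17 in SUZ12-/- H1, 0 and 2.85 in EED-/- H1 and 0 to 0.69 in the retaining lines. It thus passed the filter on low values only through PRC2-null samples, so the filter favoured a call in this direction. The gene has no entry in GENCODE 44. The call was lost without WT H1 replicate 1 (adjusted p = 0.01004), EZH2-/- H1 replicate 2 (0.0113) or EED-/- H1 replicate 2 (0.0114).

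The members that rose did so in some PRC2-null lines. IRX1 had a TPM of 0.48 and 1.30 in WT H1, 0.49 to 1.07 in the other retaining lines, 0.30 and 1.57 in EED-/- H1, 7.96 and 11.2 in SUZ12-/- H1, and 5.23 and 5.45 in EZH2-/-/EZH1-/- H1. It was higher than in WT H1 in SUZ12-/- H1 (log2 fold change 2.50 ± 0.36, limma adjusted p = 0.000228) and in EZH2-/-/EZH1-/- H1 (1.78 ± 0.36, adjusted p = 0.00239), the latter not without WT H1 replicate 1 (1.46, adjusted p = 0.0323). All 12 values lay far below the day 8 TPM of 62.4. VIPR2 had 1.43 and 1.59 in WT H1 and 7.20 and 8.55 in SUZ12-/- H1 (1.82 ± 0.30, adjusted p = 0.000542). PNCK had 2.93 and 3.08 in WT H1 and 33.8 and 33.2 in SUZ12-/- H1 (3.11 ± 0.31, adjusted p = 1.68e-05), above its day 8 TPM of 21.2, while its other line samples had 2.97 to 8.49. Its exons overlap those of SLC6A8 on the other strand, which had 49.0 and 48.7 in SUZ12-/- H1 and 59.6 and 54.9 in WT H1. FILIP1, which binds filamin A, had 1.34 and 1.66 in WT H1 and 13.2 and 12.2 in EED-/- H1 (2.46 ± 0.41, adjusted p = 0.000578).

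The PRC2-null lines were compared with one another directly. SUZ12-/- H1 exceeded EED-/- H1 in IRX1 (log2 difference 2.51 ± 0.36, limma adjusted p = 0.000810) and PNCK (2.47 ± 0.31, adjusted p = 0.000347), beside 3.54% of all genes. It was lower in JAKMIP2-AS1 (-3.62 ± 0.57, adjusted p = 0.00145) and C6orf141 (-2.04 ± 0.28, adjusted p = 0.000676), beside 2.58% of all genes. JAKMIP2-AS1, a lncRNA, had a TPM of 27.1 and 41.3 in WT H1, 20.1 and 18.99 in EED-/- H1, 1.00 and 0.40 in SUZ12-/- H1, and 3.40 and 17.9 in EZH2-/-/EZH1-/- H1. Its call against EED-/- H1 was lost without either sample of either line, with an adjusted p of up to 0.0215. C6orf141 had 24.9 and 43.5 in EED-/- H1, 7.79 and 6.77 in SUZ12-/- H1 and 21.7 in both EZH2-/-/EZH1-/- H1 samples. PNCK was also higher in SUZ12-/- H1 than in EZH2-/-/EZH1-/- H1 (2.56 ± 0.31, adjusted p = 0.000338; all genes 3.32%), where limma called 0 members lower (all genes 1.14%). At an unadjusted p under 0.05, 10 members were higher and 5 lower in that comparison, together 31.9% of the members tested against 28.5% of all genes. Between EZH2-/-/EZH1-/- H1 and EED-/- H1, limma called 0 members higher (all genes 0.0314%) and 0 lower (all genes 0.0576%), and 6 and 2 had an unadjusted p under 0.05, together 17.0% of the members tested against 20.1% of all genes.

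In the lines without EZH1 or EZH2 alone, limma called 0 members. In EZH1-/- H1 cells, calls were made for 0.0576% of all genes in the higher and 0.0419% in the lower direction. At an unadjusted p under 0.05, 10 members were higher and 3 lower, together 27.7% of the members tested against 16.0% of all genes. AC068134.6 had a TPM of 3.60 and 4.68 there and 0.40 and 0.21 in WT H1, with an adjusted p of 0.0737. FILIP1 had 8.52 and 11.8 there, with an adjusted p of 0.0418. In EZH2-/- H1 cells, calls were made for 0.0% of all genes in either direction. At an unadjusted p under 0.05, 2 members were higher and 6 lower, together 17.0% of the members tested against 5.81% of all genes.

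The metallothioneins lay far apart between replicates of some lines. MT1G had a TPM of 33.4 and 7.67 in WT H1, 73.7 and 739 in EZH1-/- H1, 198 and 161 in EZH2-/- H1, 0 and 20.6 in EED-/- H1, 126 and 120 in SUZ12-/- H1, and 5.09 and 15.4 in EZH2-/-/EZH1-/- H1. MT1H had 16.8 and 3.83 in WT H1 and 20.0 and 197 in EZH1-/- H1, and MT1E had 16.0 and 2.39 in WT H1 and 11.6 and 189 in EZH1-/- H1. The library labelled EZH1-/- H1 replicate 2 was thus the highest of all 19 samples for each of the 3, and the lines overlapped. MT1G had a log2 fold change of -2.33 ± 0.76 (limma adjusted p = 0.0185) between the PRC2-null and retaining lines. It passed the threshold without EZH1-/- H1 replicate 1 (adjusted p = 0.00667) or EED-/- H1 replicate 2 (0.00194).

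**Figure D5:**
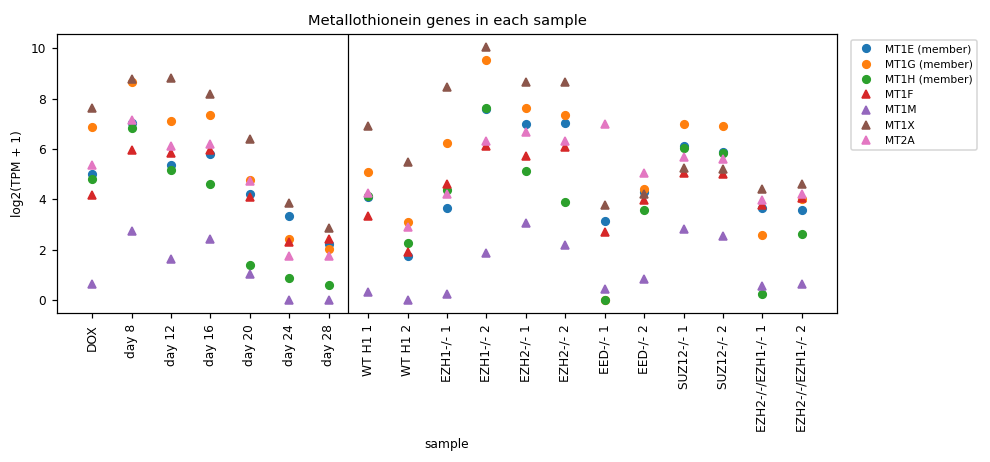
Points give log2(TPM + 1) of 7 metallothionein genes in each of the 19 samples, with the time course left of the line and circles for the 3 members. MT1G reached a TPM of 408 at day 8 and 739 in EZH1-/- H1 replicate 2, and its TPM was 4.46 and 3.07 at days 24 and 28.

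APELA had a TPM of 48.5 and 92.1 in WT H1, 12.9 and 10.2 in SUZ12-/- H1, 12.0 and 68.1 in EED-/- H1, and 190 and 63.6 in EZH2-/-/EZH1-/- H1, so that replicates of the last 2 lines lay far apart. The samples of a line were 3-fold apart for 0 members in SUZ12-/- H1, 2 in EZH2-/- H1, 3 each in WT H1 and EZH1-/- H1, and 6 each in EED-/- H1 and EZH2-/-/EZH1-/- H1. Among all genes with a TPM of 5 or more in either sample, 21 were 3-fold apart in SUZ12-/- H1 and 247 in EZH2-/- H1. WT H1 had 31 such genes, EZH1-/- H1 22, EED-/- H1 299 and EZH2-/-/EZH1-/- H1 908. The members' counts set no such limit on level. IRX2 had 8.6 to 32.0 in retaining samples and 3.69 to 7.46 in PRC2-null samples, with a log2 fold change of -1.08 ± 0.28 (limma adjusted p = 0.00594) that was below the 3-fold limit.

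Across the series, 19117 to 23012 genes had a TPM above 0 in a sample. EED had a TPM of 109 with DOX and 12.6 to 31.6 after withdrawal, and 14.2 and 22.4 in EED-/- H1 beside 17.3 and 22.0 in WT H1. The knockouts removed a functional domain, so a TPM summed over the whole gene does not check these labels. In the retaining lines the 18 pluripotency genes summed to 7210 to 8794, and in the PRC2-null lines to 380 to 722. The latter lines are called hESCs in their labels, although POU5F1 (OCT4) there had 3.62 to 150.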

How the data were processed

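RNA-seq libraries were made with the TruSeq RNA kit, which does not mark strand. The authors mapped reads with Bowtie2 and RSEM to an mRNA reference of GRCh38 and deposited TPM for 33382 genes per sample (submitters' processing notes name RSEM, Bowtie, hg19, GRCh38 and hg38). TPM was used as deposited. Depth cannot be recovered from it, so intervals and floors from counts are left out, and the spread between samples sets the precision.

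The members and the gene lists were chosen with earlier results of these data known. The 53 members were found from the 7 time-course samples, which have no replicates. The 12 line samples were fitted as log2(TPM + 1) with limma 3.58.1 in R 4.3.3 (a mean per line, 6 residual degrees of freedom, eBayes with trend and robust options), for genes reaching a TPM of 1 in 2 or more samples. The authors ran edgeR on raw counts, which TPM does not allow, and its thresholds (adjusted p of at most 0.01, fold of at least 3) were kept. On data simulated for EED-/- H1 against WT H1 over 19100 genes, the script recovered 95% of changed genes with a log2 change of 2 and 100% with 3, with 0 false calls. The simulation gave all lines 1 spread set by a gene's mean, and changed only genes with a mean log2(TPM + 1) above 3. In the samples the spread differed between lines, so these rates need not hold there or for genes with low levels. Adding 1 before the log shrinks the fold changes of genes with low levels.

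Genes named were the 30 members with the largest ratio of day 8 to the highest other time-course sample, list members, and the 3 called members with the largest rise and fall in each comparison. All others were named after their values were seen. Replicates are numbered in accession order. Annotation was from GENCODE 44 and promoters from RefSeq (GRCh38.p14). Alternatives were another pseudocount, no filter, median-ratio scaling, a replicate block, a looser threshold, leaving out each sample, and other forms of the rule. Python 3.11.15 with pandas 2.3.3, numpy 2.4.6 and matplotlib 3.10.9 was used.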

Additional observations from a re-analysis of the deposited data

Results flagged for a closer look

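Levels of 4 members differed between the PRC2-null lines by limma's direct contrast of the lines. In SUZ12-/- H1 against EED-/- H1, 4.26% of members tested were higher and 4.26% lower, beside 3.54% and 2.58% of all genes. Against EZH2-/-/EZH1-/- H1, 2.13% were higher, beside 3.32% of all genes. The shares are close, so these are calls of single genes rather than a trait of the members. The contrasts do not isolate an effect of PRC2 loss. IRX1 was higher in SUZ12-/- H1 than in EED-/- H1 by 2.51 on the log2(TPM + 1) scale, and fell short of the threshold without SUZ12-/- H1 replicate 2 (highest adjusted p over 16 alternatives 0.0160). PNCK was higher in SUZ12-/- H1 by 2.47 against EED-/- H1 and by 2.56 against EZH2-/-/EZH1-/- H1, and passed in all 16 alternatives of both (adjusted p 0.000142 to 0.00798 and 0.000232 to 0.00933). JAKMIP2-AS1 was lower in SUZ12-/- H1 than in EED-/- H1, with a log2 difference of -3.62, and missed the threshold whenever a sample of either line was left out. C6orf141 was lower in the same comparison, with -2.04, and missed it without either SUZ12-/- H1 sample.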

How the results depend on the processing

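Leaving out each sample in turn gave 9 to 10 lower for EED-/-, 8 to 10 for SUZ12-/-, 9 to 12 for EZH2-/-/EZH1-/- and 8 to 11 for PRC2-null against retaining lines. Higher members ranged from 1 to 2, 3 to 4, 0 to 3 and 0 to 2. In EZH1-/- H1 and EZH2-/- H1 both counts stayed at 0. Leaving out a sample leaves its line with 1, which is then assumed to vary like the others. No share of all genes is given for these fits, so the counts show only how far the calls moved. The differences of SUZ12-/- H1 from EED-/- H1 ranged from 1 to 3 higher and 0 to 2 lower, those of EZH2-/-/EZH1-/- H1 from EED-/- H1 from 0 to 2 and 0 to 1 (2 and 1 without EZH2-/-/EZH1-/- H1 replicate 1), and those of SUZ12-/- H1 from EZH2-/-/EZH1-/- H1 were 1 higher and 0 to 2 lower (2 without EZH2-/-/EZH1-/- H1 replicate 1, 1 without either EED-/- H1 sample). The higher count in EED-/- H1 was 2 without EED-/- H1 replicate 1. In EZH2-/-/EZH1-/- H1 it was 0 without WT H1 replicate 1, and 3 and 2 without that line's replicates 1 and 2. For PRC2-null against retaining lines it was 0 without WT H1 replicate 1, EZH2-/- H1 replicate 2 or EED-/- H1 replicate 2, and 2 without WT H1 replicate 2 or EED-/- H1 replicate 1. For SUZ12-/- H1 against EED-/- H1 the higher count was 1 without SUZ12-/- H1 replicate 2, and the lower count was 0 without either SUZ12-/- H1 sample and 1 without EED-/- H1 replicate 1.

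A pseudocount of 0.1 gave 2 higher for EED-/-, 5 for SUZ12-/-, 2 for EZH2-/-/EZH1-/-, 4 for PRC2-null against retaining lines and 4 for SUZ12-/- H1 against EED-/- H1. At that pseudocount the shares of all genes called higher were 19.4%, 17.5%, 14.9%, 21.4% and 2.89%. An adjusted p of at most 0.05 without a fold limit, which asks less by construction, gave 1 higher and 1 lower in EZH1-/- H1, 4 higher in EED-/- H1, 8 higher and 14 lower in SUZ12-/- H1, 7 higher in EZH2-/-/EZH1-/- H1, and 12 higher and 18 lower for PRC2-null against retaining lines. It gave 11 higher in SUZ12-/- H1 than in EED-/- H1, and 4 higher and 3 lower than in EZH2-/-/EZH1-/- H1. No share of all genes is given at this threshold, so nothing particular to the members can be read from these counts. With members chosen after rescaling the time course, an alternative added after the data were seen, 6 were lower for EED-/-, 5 for SUZ12-/- and 6 for EZH2-/-/EZH1-/-, 1 was higher in SUZ12-/- H1 than in EED-/- H1, and 0 than in EZH2-/-/EZH1-/- H1. The causes of the other shifts were not tested.

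Replicate numbers follow accession order and did not pair the samples, with a correlation of their deviations from -0.12 to 0.22 over 15 pairs of lines. With a replicate block, 2 members were higher in EZH2-/-/EZH1-/- H1, RP11-923I11.8 being added. The other counts moved by less than 1.5 times with the block, without a filter and with median-ratio scaling. The rule itself gave 68 members with v as TPM + 0.1, 21 with TPM + 5, 75 with a day 8 TPM of at least 1 and 38 with at least 10. Over 282 pairs of a tested member and a comparison, 4420 of 4476 alternatives left the call as it was, 18 lost it, 38 gained it and 0 turned the direction of a called value, while 121 turned the sign of an uncalled one. Depth is unknown, and genes near a TPM of 0 are least certain.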
